A study of Homo sapiens with 6 samples.

Results

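The clock genes analysed here were PER1, PER2, PER3, CRY1, CRY2, CLOCK, NR1D1, NR1D2, BHLHE40 and DBP, taken as a list of E-box-driven genes of the circadian oscillator. All 10 were found among the 20037 protein-coding genes of the RefSeq table. A peak was assigned to a gene when it lay inside the gene body or within 3 kb of it, which gave the clock genes 33 of 37574 PLAG1-S peaks in clone 4, 20 of 29889 in clone 5, 11 of 9338 USF2 peaks in clone 4 and 8 of 4369 in clone 5. The peaks come from chromatin immunoprecipitation sequencing (ChIP-seq) of K562, a line grown from a human chronic myeloid leukemia, with both factors overexpressed. There were 2 clones, Clone# 4 and Clone# 5, each co-overexpressing Flag-PLAG1-S and USF2, and each gave an anti-Flag library, an anti-USF2 library and an input library, so that each factor had 2 libraries. Neither clone was treated. PLAG1-S, a short isoform of the zinc finger factor PLAG1, was pulled down through its FLAG tag, while the USF2 antibody does not tell the added protein from the cell's own. Each library comes from a line that is a single clone, no library without the added factors was analysed here, and the merged inputs stand behind all 4 peak lists. The lists hold enrichment over input and say nothing of the level of any transcript.

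In the circadian oscillator, CLOCK and its partner BMAL1 bind E-boxes and activate the PER and CRY genes, whose proteins return to the nucleus and repress CLOCK and BMAL1. A second loop runs through the nuclear receptors REV-ERBα (NR1D1) and REV-ERBβ (NR1D2), which repress BMAL1 transcription, and further E-box targets are BHLHE40 (DEC1), a repressor that binds E-boxes itself, and DBP, an activator that binds D-boxes in output genes. USF2 is a basic helix-loop-helix leucine zipper factor that binds the same palindromic E-box, CACGTG, whereas PLAG1 recognises a G-rich bipartite site.

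Promoter sequence of these genes was read because the E-box is the element that the clock and USF2 share. RefSeq promoter windows (GRCh38.p14) run from 250 bases before to 50 bases after a transcription start, and both strands were searched. The E-box CACGTG was found in the windows of 3 of the 10 genes, PER1, NR1D2 and BHLHE40, and NR1D2 held it 2 times. Of the 14 windows of the family 3 held it, against 7.26% of all 35116 windows, and of all 15843 protein-coding genes with a window 10.9% held it. The E-box-like hexamer CACGTT, read as AACGTG from the other strand, was found in 5 genes, PER2, CRY1, CRY2, CLOCK and NR1D1, and so in 5 of their 14 windows, against 5.34% of all windows and 7.08% of genes with a window. PER3 and DBP held neither. The following stretches are shown 5′ to 3′ on the strand of the gene for the 9 genes with a clone 4 PLAG1-S summit inside a window. Each is centred on the E-box or E-box-like hexamer nearest that summit, or for PER3 on the summit itself, and is cut where the window ends. The stretches of PER1 and PER2 do not reach the summit. Capitals mark the E-box, the E-box-like hexamer and any other CANNTG.
PER1, chr17:8152515-8152634, minus strand: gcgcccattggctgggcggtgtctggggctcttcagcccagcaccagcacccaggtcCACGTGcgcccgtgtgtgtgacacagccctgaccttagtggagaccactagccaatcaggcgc
PER2, chr2:238288745-238288860, minus strand: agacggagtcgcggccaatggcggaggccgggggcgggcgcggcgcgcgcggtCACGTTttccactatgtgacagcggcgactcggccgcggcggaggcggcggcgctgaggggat
PER3, chr1:7784222-7784341, plus strand: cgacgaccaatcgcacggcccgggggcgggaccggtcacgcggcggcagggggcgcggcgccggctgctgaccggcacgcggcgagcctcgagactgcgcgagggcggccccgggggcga
CRY1, chr12:107093576-107093695, minus strand: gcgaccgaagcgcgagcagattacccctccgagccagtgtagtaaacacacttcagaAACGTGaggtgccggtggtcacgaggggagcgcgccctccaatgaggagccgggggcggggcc
CRY2, chr11:45847230-45847349, plus strand: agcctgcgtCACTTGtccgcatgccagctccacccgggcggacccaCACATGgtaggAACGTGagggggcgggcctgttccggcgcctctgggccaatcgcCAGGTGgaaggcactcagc
CLOCK, chr4:55546057-55546176, minus strand: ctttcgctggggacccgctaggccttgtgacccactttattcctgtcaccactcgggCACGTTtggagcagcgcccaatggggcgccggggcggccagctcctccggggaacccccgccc
NR1D1, chr17:40100695-40100814, minus strand: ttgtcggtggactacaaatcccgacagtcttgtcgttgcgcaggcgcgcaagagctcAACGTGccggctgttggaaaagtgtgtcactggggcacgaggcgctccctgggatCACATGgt
NR1D2, chr3:23945959-23946078, plus strand: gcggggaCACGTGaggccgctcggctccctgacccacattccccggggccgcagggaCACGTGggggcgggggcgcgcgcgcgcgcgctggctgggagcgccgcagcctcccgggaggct
BHLHE40, chr3:4979187-4979254, plus strand: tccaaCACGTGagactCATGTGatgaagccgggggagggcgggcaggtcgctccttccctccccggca
The 4 other motifs searched were the D-box TTATGNAA, found in 3 of the 14 windows (PER1, PER3 and NR1D2) against 3.30% of all windows, the element AGGTCA of the ROR and REV-ERB receptors, found in 3 windows of 2 genes against 13.8%, the cyclic AMP response element TGACGTCA, found in none against 1.85%, and GGGGC, the core of the G-rich PLAG1 site, found in 13 windows and in all 10 genes against 70.3%. CANNTG, which includes the E-box, was present in 9 windows of 7 genes and in 68.7% of all windows. A match describes the letters of the window and does not show that a factor was bound there.

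PLAG1-S peaks were present at every clock gene and USF2 peaks at most of them. All 10 genes had a PLAG1-S peak in clone 4, where 64.0% of protein-coding genes had one, and all 10 had a PLAG1-S peak in clone 5, where 58.3% did. In 10 of 10 a clone 4 peak overlapped a clone 5 peak, against 52.0% of protein-coding genes. USF2 peaks were listed at 7 of 10 genes in clone 4 (25.3% of protein-coding genes) and at 6 of 10 in clone 5 (13.6%), and were reproducible, that is, overlapping between the clones by at least 1 bp, at 6 of 10 (10.3%). The same 6 genes, PER3, CRY1, NR1D1, NR1D2, BHLHE40 and DBP, had a co-bound peak, defined as a reproducible PLAG1-S peak with its edge within 100 bp of a reproducible USF2 peak, against 9.98% of protein-coding genes. They also had a peak in each of the 4 lists, against 11.5% of protein-coding genes. CLOCK had a USF2 peak in clone 4 alone, and PER1, PER2 and CRY2 had none in either clone. These shares are descriptions, since the genes were chosen as a family with earlier results of these data known. Genes of unequal length and promoter number also do not have equal chances of holding a peak.

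Promoter E-boxes and USF2 peaks went together at some of these genes and not at others. Among 1727 protein-coding genes with CACGTG in a promoter window, 42.8% had a reproducible USF2 peak, against 6.84% of the 14116 genes with a window and no CACGTG. Among the genes that also had a reproducible PLAG1-S peak, as all 10 clock genes had, the shares were 53.1% with CACGTG and 13.4% without. Of the 3 clock genes with the E-box, NR1D2 and BHLHE40 had reproducible USF2 peaks and PER1 did not. Of the 7 without it, 4 had them. The E-box was searched in promoter windows only, while USF2 peaks counted in the gene body and within 3 kb. At NR1D1 and DBP the reproducible USF2 peaks lay inside the gene, outside the windows, and the bases under them were not searched. In the promoter windows with a reproducible USF2 summit, 85.2% of 923 held CACGTG, which is how the USF2 lists were checked against their label. Windows with a reproducible PLAG1-S summit and no reproducible USF2 summit held it in 19.5% of 3285 cases, and windows with neither in 3.63% of 30908. The E-box-like hexamer was held by 4.66%, 5.54% and 5.34% of these windows in the same order, and so was not more frequent under USF2 summits.

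At the 10 genes, overlapping peaks were joined into 33 sites. Of these, 6 were in all 4 lists, 3 had PLAG1-S in both clones with USF2 in 1 clone, 9 had PLAG1-S in both clones without USF2, and 15 had PLAG1-S in 1 clone only. Every USF2 peak at a clock gene, 11 in clone 4 and 8 in clone 5, had a PLAG1-S peak from that clone within 100 bp, as did 59.9% and 62.5% of all USF2 peaks in the 2 clones. The converse did not hold, since 9 of 33 PLAG1-S peaks in clone 4 and 6 of 20 in clone 5 had such a USF2 neighbour, against 14.4% and 9.06% of all PLAG1-S peaks. PLAG1-S peaks with a USF2 neighbour had a median fold of 21.5 in clone 4 and 18.5 in clone 5, and those without had medians of 5.15 and 5.16. Fold is the enrichment at the summit over the local input background. Over the whole PLAG1-S lists the medians were 11.0 and 11.7 with a USF2 neighbour and 5.01 and 4.93 without.

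The 9 sites with USF2 in at least 1 clone were the 9 sites of the family with the highest PLAG1-S fold. Their PLAG1-S folds ran from 13.8 to 37.7 in clone 4 and from 9.66 to 44.8 in clone 5. The 9 sites with PLAG1-S in both clones and no USF2 ran from 3.09 to 11.9 in clone 4 and from 3.50 to 8.33 in clone 5, so that the 2 ranges did not overlap in either clone. The upper end of the second range was the site upstream of PER1, and the lower end of the first was near the DBP promoter in clone 4 and at CLOCK in clone 5. This separation did not extend to other genes of the clock pathway. BHLHE41 had a site without USF2 at PLAG1-S folds of 12.3 in clone 4 and 13.5 in clone 5. TIMELESS had a site with USF2 in both clones at PLAG1-S folds of 11.3 and 9.85. In the lists as a whole, USF2 was within 100 bp of 59.5% of the clone 4 PLAG1-S peaks with a fold of at least 10 and of 7.45% of those below it, and of 50.3% and 4.34% in clone 5. The sites with PLAG1-S in 1 clone only were 13 in clone 4, with folds from 3.42 to 6.32, and 2 in clone 5, with folds of 3.76 inside PER3 and 5.00 inside PER1. PER1 and PER3 held 9 of these 15 sites, and CRY1, CLOCK and NR1D2 had none.

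The negative limb of the second loop held the strongest peak of the family. At NR1D2, which encodes REV-ERBβ, the PLAG1-S fold was 37.7 in clone 4 and 44.8 in clone 5, and the USF2 fold was 27.2 in clone 4 and 18.3 in clone 5. These values put the peak 131st of 37574, 21st of 29889, 43rd of 9338 and 80th of 4369 in its lists. The number of fragments over the summit, worked back from the fold and −log10 p of the peak, was 239 (95% exact Poisson interval 210 to 271, which covers counting error only), 225 (197 to 256), 151 (128 to 177) and 94 (76.0 to 115) in the same order. The 4 counts stand on local backgrounds of 5.37, 4.05, 4.59 and 4.19 fragments. In clone 4 the PLAG1-S peak was 1271 bp wide, from 23945116 to 23946386 on chromosome 3, and covered both RefSeq starts of the gene. The 4 summits lay between 121 and 149 bp upstream of the second start, at 23946121, and both E-boxes of that promoter were inside all 4 peaks. The centre of the upstream E-box was 31.5 bp from the clone 4 PLAG1-S summit, 3.5 bp from that of clone 5, and 11.5 and 7.5 bp from the USF2 summits of clones 4 and 5. From the downstream E-box the distances were 18.5, 46.5, 38.5 and 42.5 bp, so that 3 of the 4 summits were nearer to the upstream copy. The body of NKIRAS1, which encodes an inhibitor of NF-κB signalling, overlaps this peak, and the peak cannot be given to either gene from its position.

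NR1D1, which encodes REV-ERBα, had 2 sites with both factors. At its promoter the PLAG1-S fold was 16.1 in clone 4 and 12.4 in clone 5, with summits 135 and 116 bp before the start, and USF2 was listed in clone 4 alone with a fold of 5.83 over 45 fragments. That USF2 summit was 4.5 bp from the centre of a CACATG and 59.5 bp from the E-box-like AACGTG. The stronger site lay inside the gene, where the PLAG1-S fold was 26.3 in clone 4 and 19.9 in clone 5, with summits 1446 and 1439 bp past the start. USF2 had there a fold of 6.21 in clone 4, with its summit 1131 bp past the start, and in clone 5 a pair of peaks with folds of 6.87 and 3.67 and summits at 1453 and 1108 bp. The USF2 summit of clone 4 therefore lay next to the weaker peak of clone 5, and the strongest USF2 summits of the 2 clones were 322 bp apart. A USF2 peak in both clones was also found 7.79 and 7.72 kb upstream of NR1D1, beyond the 3 kb limit, with folds of 8.37 in clone 4 and 5.53 in clone 5.

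CRY1 and CRY2, the cryptochromes that carry most of the repression of CLOCK and BMAL1, differed in their USF2 peaks. CRY1 had a single site at its start in all 4 lists, with a PLAG1-S fold of 24.4 in clone 4 and 18.0 in clone 5 and a USF2 fold of 13.3 in clone 4 and 10.6 in clone 5. The fragments over the summits numbered 113 (93.1 to 136), 80 (63.4 to 99.6), 61 (46.7 to 78.4) and 48 (35.4 to 63.6). All 4 summits fell between 43 and 64 bp before the start, and 22.5 to 43.5 bp from the AACGTG. CRY2 had PLAG1-S peaks over its promoter, with folds of 9.60 in clone 4 and 5.70 in clone 5, and inside the gene, 33140 and 33194 bp past a start, with folds of 10.6 and 5.33. No USF2 peak was listed at CRY2 in either clone. The clone 4 PLAG1-S summit at the CRY2 promoter was 3.5 bp from the centre of its AACGTG, and the clone 5 summit was 328.5 bp from it. Both CRY1 and CRY2 thus held the E-box-like hexamer under PLAG1-S peaks, and USF2 was listed at CRY1 only. Over all promoter windows this hexamer was about as frequent with a PLAG1-S summit and no USF2 summit (5.54%) as with neither (5.34%).

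The 3 PER genes encode the partners of the cryptochromes in the repressor complex, and USF2 was listed at PER3 alone. At PER3 the PLAG1-S fold was 14.8 in clone 4 and 13.0 in clone 5, with summits 9 and 12 bp before the start, and the USF2 fold was 5.87 in clone 4 and 4.22 in clone 5, over 34 and 23 fragments. The USF2 peak of clone 5 was weak, with a −log10 q of 5.65, and PER3 drops out of the co-bound genes when a −log10 q of at least 10 is asked of every peak. The promoter windows of PER3 held neither hexamer, and the CAGGTG of one of them was 45.5 to 129.5 bp from the 4 summits. The gene VAMP3, which encodes a vesicle fusion protein, ends within 3 kb of the PER3 peak. PER1 had its strongest PLAG1-S peak 1327 bp upstream in clone 4 and 1324 bp upstream in clone 5, with folds of 11.9 and 8.33, and a weaker site over its promoter with folds of 6.32 and 5.83. The E-box of PER1 lay inside that promoter peak in both clones, 140.5 bp from the summit of clone 4 and 9.5 bp from that of clone 5, without a USF2 peak. PER2 was the weakest of the family, with PLAG1-S folds of 6.69 in clone 4, 818 bp upstream, and 4.11 in clone 5, 636 bp upstream, and 38 and 24 fragments. The 2 peaks overlap, and both lie inside the RefSeq gene body, which reaches upstream of the start used here. The CACGTT of PER2 lay in another PLAG1-S peak, listed in clone 4 alone with a fold of 4.84. Within 10 kb, single USF2 peaks of clone 4 were listed 4.00 kb upstream of PER1 (fold 5.17) and past the 3′ end of PER2 (fold 4.14), neither of them overlapping a clone 5 peak.

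CLOCK, the DNA-binding activator itself, had a strong PLAG1-S peak and the lowest USF2 fold among the strongest peaks of the family. The PLAG1-S fold was 17.3 in clone 4 and 9.66 in clone 5, over 75 and 39 fragments. USF2 had a fold of 3.86 in clone 4 over 16 fragments (9.15 to 26.0), with a −log10 q of 3.42, and no peak was listed in clone 5. The clone 4 summits were 5.5 bp (PLAG1-S) and 22.5 bp (USF2) from the centre of the CACGTT in the promoter, which lies 187 bp before the start.

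BHLHE40 and DBP, the remaining E-box targets, were both co-bound. At BHLHE40 the PLAG1-S fold was 21.5 in clone 4 and 18.0 in clone 5, and the USF2 fold was 10.3 in clone 4 and 6.04 in clone 5, all at 235 to 293 bp before the start and so outside the gene body. The E-box there was 3.5 bp from the clone 4 PLAG1-S summit, 6.5 and 7.5 bp from the USF2 summits of clones 4 and 5, and 50.5 bp from the clone 5 PLAG1-S summit. A CATGTG followed after 5 bases, 3.5 to 7.5 bp from the same 3 summits. A second, weak USF2 peak lay 1114 bp upstream in both clones, with folds of 3.93 and 3.41. At DBP the strongest site was not at the promoter but inside the gene. PLAG1-S had there a fold of 27.9 in clone 4 and 19.0 in clone 5, and USF2 a fold of 12.3 in clone 4 and 9.54 in clone 5, over 146, 92, 64 and 47 fragments. All 4 summits fell between 2772 and 2806 bp past the start. Near the DBP promoter the PLAG1-S folds were 13.8 and 11.6, with summits 453 and 439 bp upstream, and USF2 was listed in clone 4 alone with a fold of 3.08, the lowest of all USF2 peaks at these genes.

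**Figure D1:**
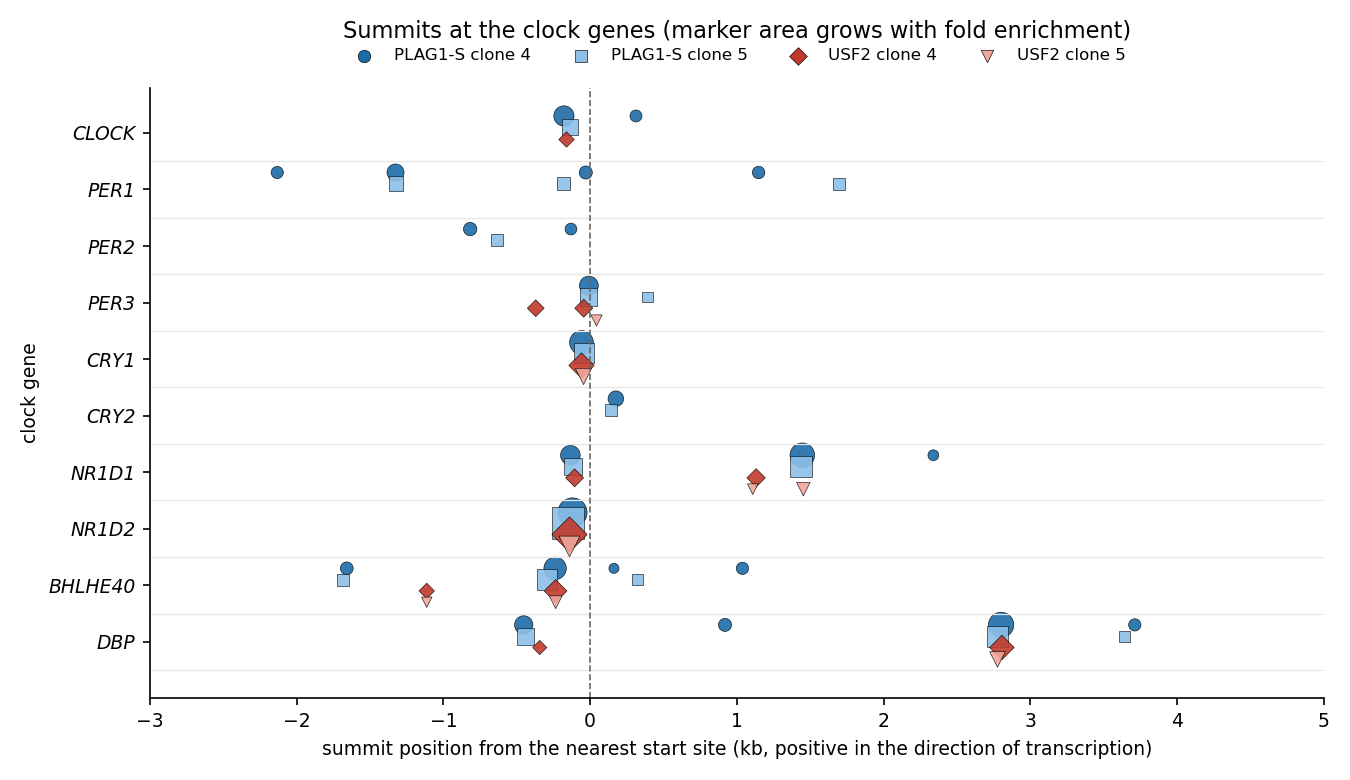
Summit positions relative to the nearest RefSeq start (kb, positive in the direction of transcription) of the peaks at the 10 clock genes, with marker area growing with fold enrichment. There were 12 PLAG1-S summits beyond the plotted range of -3 to 5 kb and no USF2 summit beyond it, and the sites shared by all lists lie near the start except at NR1D1 and DBP, where they are inside the gene.

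At the 6 sites in all 4 lists, the PLAG1-S and USF2 summits were a median of 12.5 bp apart in clone 4 (3 to 315 bp) and 11.5 bp apart in clone 5 (4 to 58 bp). The span of all 4 summits had a median of 46 bp, with 322 bp at NR1D1 as the widest. Enrichment was higher in clone 4 than in clone 5 at 5 of the 6 sites for PLAG1-S, the exception being NR1D2 with a ratio of 0.842, and at 5 of 6 for USF2, the exception being NR1D1 with a ratio of 0.904. Of all reproducible peaks, 66.3% of PLAG1-S and 78.2% of USF2 peaks were higher in clone 4, the same direction as at the clock genes. Differences between genes were not tested, and 2 clones per factor would give such a test little power.

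**Figure D2:**
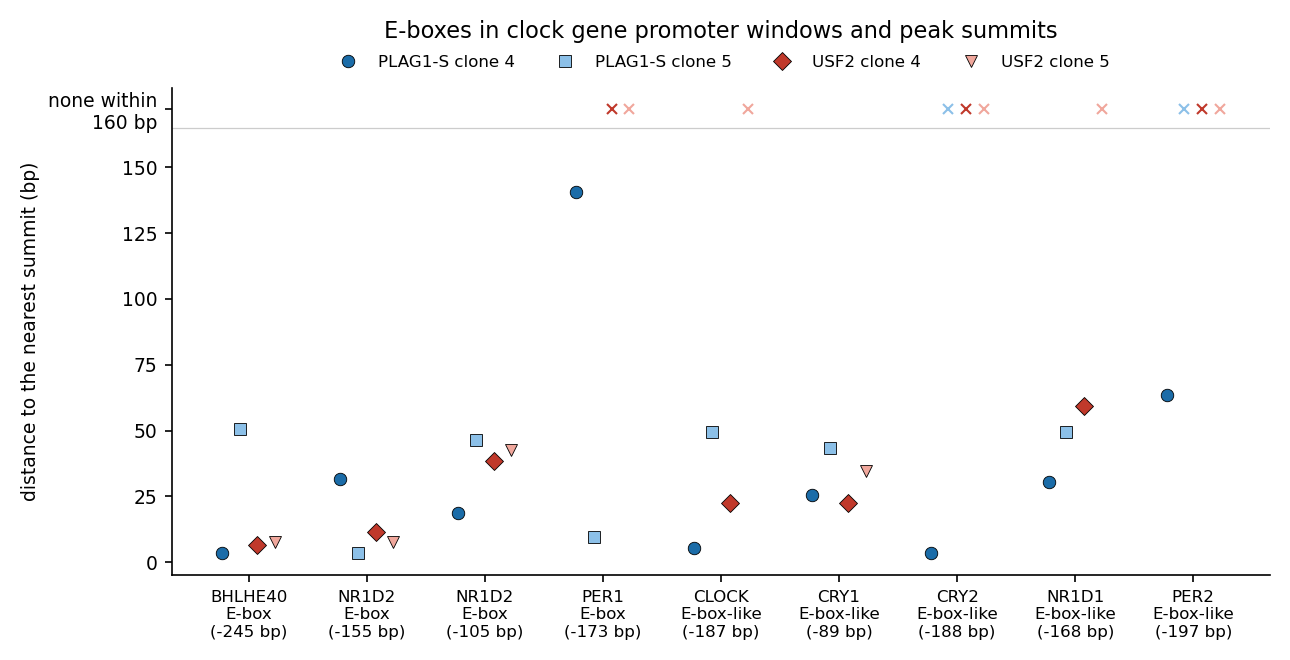
Distance (bp) from the centre of each E-box or E-box-like hexamer in the promoter windows of the clock genes to the nearest summit of a peak of that gene in each list, with the position of the hexamer's first base from the start in brackets and a cross where no summit lay within 160 bp. At BHLHE40 and the upstream E-box of NR1D2, both USF2 summits lie 6.5 to 11.5 bp away, while the PER1 E-box has only PLAG1-S summits near it.

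Short distances between summits and E-boxes, as at BHLHE40 and NR1D2, were also seen in promoters as a whole. Only reproducible summits inside a promoter window that held CACGTG were counted, and the window of 300 bases limits the distance. The clone 4 USF2 summit was a median of 7.5 bp from the nearest CACGTG over 786 summits, with 88.0% within 25 bp. The clone 4 PLAG1-S summit was a median of 9.5 bp from it over 1412 summits, with 79.3% within 25 bp. The PLAG1-S summits include those in windows that also held a USF2 summit, such as at NR1D2 and BHLHE40. Each gene was also ranked by its strongest peak among all protein-coding genes with a peak in that list. By this measure 8 of 10 clock genes were in the top 25% for PLAG1-S in clone 4 and 6 of 10 in clone 5, and 4 of 7 for USF2 in clone 4 and 3 of 6 in clone 5. The median strongest fold was 19.4 and 15.5 for PLAG1-S in clones 4 and 5, against 7.11 and 6.42 over all genes with a peak, and 10.3 and 8.21 for USF2, against 4.80 and 5.25. PER2 lay below the median of all genes in both PLAG1-S lists and CRY2 in that of clone 5, and for USF2 CLOCK lay below it in clone 4 (3.86) and PER3 in clone 5 (4.22).

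The other genes of the clock pathway were taken as a list of 27 partners, repressors, receptors, D-box factors, kinases, ubiquitin ligases and proteases, and output genes. PLAG1-S peaks were listed at 23 of them in clone 4 (85.2%, against 64.0% of protein-coding genes) and 21 in clone 5 (77.8% against 58.3%), and were reproducible at 20 (74.1% against 52.0%). USF2 peaks were listed at 8 in clone 4 (29.6%), near the 25.3% of protein-coding genes, at 7 in clone 5 (25.9% against 13.6%) and were reproducible at 6 (22.2% against 10.3%). No USF2 peak was listed at 18 of them. The 6 with reproducible USF2 peaks, all co-bound, were TIMELESS, RORA, TEF, USP2, PPARGC1A and SIRT1. Of the genes listed as repressors, TIMELESS was thus co-bound. The others, BHLHE41, CIART, NFIL3 and TIPIN, had reproducible PLAG1-S peaks and no USF2 peak in either clone. BMAL1, the partner of CLOCK, had a single weak PLAG1-S peak in clone 4, with a fold of 3.95, far inside the gene, and no USF2 peak.

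The strongest of these were at SIRT1 and TEF. SIRT1 encodes a deacetylase that acts on BMAL1 and PER2, and at its start the PLAG1-S fold was 50.3 in clone 4 and 44.6 in clone 5 and the USF2 fold 26.1 in clone 4 and 22.3 in clone 5, which is of the order of NR1D2. TEF, a D-box activator of the same family as DBP, had co-bound peaks at both of its starts. At the first the PLAG1-S folds were 34.8 and 27.9 and the USF2 folds 24.5 and 21.8 in clones 4 and 5, and at the second 38.2 and 30.0 and 23.9 and 15.4. HLF, the third member of that family, had PLAG1-S peaks and no USF2 peak. At PPARGC1A, a coactivator of the ROR receptors, the USF2 fold was 8.53 in clone 4 and 4.06 in clone 5, with summits 114 and 46 bp before the start, on PLAG1-S folds of 15.5 and 15.8. USP2, a deubiquitinase of clock proteins, had USF2 folds of 5.70 and 5.07, RORA, which activates BMAL1 at the sites where the REV-ERB receptors repress it, 4.29 and 4.25, and TIMELESS 4.16 and 4.35. TIMELESS encodes a protein of replication forks that has been tied to the clock. The clone 4 USF2 summit of USP2 was 142 bp upstream of the 5′ end of its RefSeq gene body and that of TIMELESS was 2 bp from its start. In RORA the summit lay inside the gene body, 34967 bp past the single start that the promoter table gives, and a start missing from that table would change this distance.

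**Figure D3:**
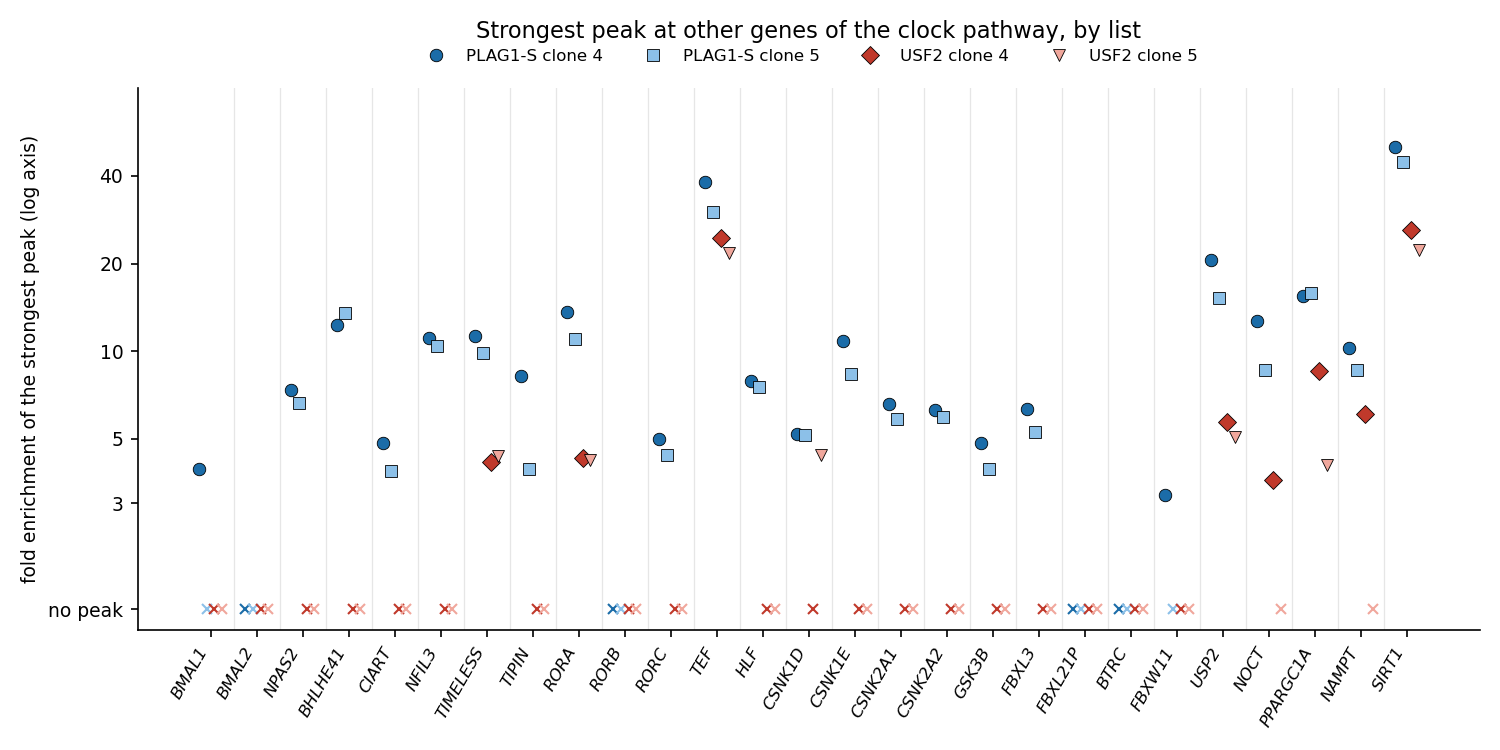
Fold enrichment over input (log axis) of the strongest peak at each of 27 other clock pathway genes, with 1 point for each of the 4 peak lists and a cross where a list holds no peak. SIRT1 and TEF stand highest in all 4 lists, and 18 genes carry crosses for both USF2 lists.

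The USF2 lists are shorter than the PLAG1-S lists although their q-values run up to 0.0494 in clone 4 and 0.0477 in clone 5, against 0.00990 and 0.00974 for PLAG1-S. The fewest fragments over a USF2 summit at a clock gene were 16 in clone 4 and 23 in clone 5. A gene without a listed USF2 peak, such as PER1, PER2 or CRY2, therefore had no enrichment in its body or within 3 kb that passed peak calling. A weaker occupancy would not have been detectable in these libraries.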

How the data were processed

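MACS2 was run by the authors on each library separately, with the merged inputs as control, on hg38. Reads were 50 bp long, and the submitters' processing notes name HISAT2 2.0.4, an aligner, and SAMtools, without saying how each was set. The fold deposited by the authors is a ratio of the summit's fragments to the local background. The −log10 p and −log10 q deposited by the authors come from a Poisson model, and the deposited score is that −log10 q multiplied by 10 and cut to a whole number. Stated depth was 42500000 reads per IP and 55000000 per input. Fold, q and score depend on that depth and on each library's enrichment.

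Peaks were assigned to genes by overlap with the RefSeq gene body (GRCh38.p14, an hg38 release) and 3 kb around it. Fragments over a summit were recovered from fold and −log10 p and accepted within 0.001 of the deposited value. This held for 100% of the peaks at the clock genes. The code also recovered 100% of 491 simulated summits. Those were made with the formulas that the recovery inverts, so they check the code and not the formulas. Distances and motifs used the RefSeq promoter table, which gives starts for all 10 clock genes and 22 of the 27 pathway genes. The distance from a hexamer runs from its centre to the summit.

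The members, the gene lists and the alternatives were chosen with earlier results of these data known. No statistical test was run on the clock genes. Named genes are the 10 members, the pathway genes with a co-bound peak, the 3 pathway genes with the largest clone 4 USF2 fold, and genes that share a member's strongest clone 4 peak. BMAL1, HLF, BHLHE41, CIART, NFIL3, TIPIN and the USF2 peaks beyond 3 kb were named after their values were seen. The labels give the clone of every library, and libraries of a clone share its cells, which pairs PLAG1-S with USF2. Alternatives changed the region around a gene, the q threshold, the overlap between clones, the distance between factors and the gene set of the background. Clone 5 coordinates were added after seeing the data. Python 3.11.15, numpy 2.4.6, pandas 2.3.3, scipy 1.17.1, statsmodels 0.14.6 and matplotlib 3.10.9 were used.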

Additional observations from a re-analysis of the deposited data

How the results depend on the processing

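The counts of clock genes stayed within 1.5 times their values under every alternative run. USF2 was listed at 6 to 9 genes in clone 4 and at 5 or 6 in clone 5. Where both clones were required, USF2 was reproducible at 5 or 6 genes and co-bound genes numbered 5 or 6. Where a peak in 1 clone sufficed, both counts reached at most 7. BHLHE40 was lost when peaks had to overlap the gene body, DBP when a site had to lie within 1 kb of a start, PER3 at a −log10 q of at least 10, and NR1D1 with 50% reciprocal overlap of the clones or 100 bp between summits. CLOCK was gained with the union of the clones. Leaving out either clone gave 6 to 7 co-bound genes, and the replicate block, with the factors compared within each clone, gave a mean of 6.5. A margin of 10 kb added PER1 and PER2 to the clone 4 USF2 genes. With the stricter q, PER2 lost its reproducible PLAG1-S peak.

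The background depended on which genes were counted. Over all 59665 genes of the table, the shares with a peak were 35.3% and 30.8% for PLAG1-S in clones 4 and 5, 13.0% and 6.94% for USF2, 26.9% and 5.03% for reproducible PLAG1-S and USF2 peaks, 4.80% for co-bound peaks and 5.51% for a peak in each list. The strongest fold moved by more than the spread between clones in 4 cases with the gene body alone and in 3 with a margin of 10 kb, at PER1, PER2, NR1D1 and BHLHE40. No result was available without overexpressed factors, enrichment below the calling thresholds is not listed, and 2 clones per factor limit every comparison.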
